A study of Xenopus laevis with 16 samples.

Results

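Wnt8 and FGF8 are compared here as posteriorising signals, each overexpressed alone in animal cap explants of Xenopus laevis. For every transcript the log2 ratio of Wnt8 caps to control 3 was set beside the log2 ratio of FGF8 caps to control 4, with 1 RPKM added to each value, and the FGF8 ratio was subtracted from the Wnt8 ratio. The members were the 13712 transcripts listed in both of the authors' tables for these treatments, out of 43646 in the full table of the series. Of the authors' tables, that for Wnt8 listed 15824 transcripts and that for FGF8 listed 15210, and each held only transcripts whose mean over the treated and the control library was above 1 RPKM. The ratio of each treatment rests on 1 treated and 1 control library, so these ratios carry no p-value.

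An animal cap is the ectoderm over the blastocoel, which forms epidermis when it is cultured alone. All explants came from embryos of the Nasco strain, were cut at stage 9 and were cultured to stage 12, the end of gastrulation. The Wnt8 caps came from embryos injected with 16 pg of xWnt8 mRNA at the 2-4 cell stage, and the FGF8 caps from embryos injected with 200 pg of FGF8 mRNA at that stage. The doses therefore differed, and 1 dose of each was tested. The 4 control libraries were whole caps without a listed mRNA, the 3 dissociated libraries were caps taken apart into single cells, and the deposited tables give each numbered set as an experiment with its own control. Nothing in the labels says how the replicates relate beyond that, so p-values below measure only the spread between these libraries. Also used were 1 of caps with 200 pg Xnr2 mRNA, 1 of caps with 200 pg Xnr2 and 16 pg xWnt8 mRNA, and 1 each of dorsal and ventral explants of embryos cut at stage 10 and grown to stage 12. How many explants were pooled for a library is not given in the sources used here.

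Wnt8 is a secreted ligand that binds Frizzled and Lrp receptors and stabilises beta-catenin, which turns on genes together with Tcf and Lef factors. FGF8 binds receptor tyrosine kinases and acts largely through the Ras and MAP kinase cascade, whose own inhibitors are among its targets. In the vertebrate gastrula both signals are made in and near the posterior mesoderm, and both are known to shift neural and ectodermal tissue towards posterior fates through cdx, hox and T-box genes.

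The depth recovered for the libraries compared was between 36659593 mapped reads in control 4 and 46522450 in control 3, with 41785027 in Wnt8 and 42260599 in FGF8. Markers of cap ectoderm were abundant, with krt12.S at 829 RPKM in control 3 and 659 RPKM in control 4, although tp63 was at most 0.60 RPKM in control 3. Of 8 muscle and 11 blood models, none was listed at 1 RPKM or more in control 3, in Wnt8 or in control 4, and the FGF8 values hold none of them. Only 6 muscle and 2 blood models had a value in Wnt8, and 6 and 1 in control 4. Of 18 endoderm models, 6 reached 1 RPKM in control 3, 5 in Wnt8, 5 in control 4 and 2 in FGF8. The highest of these in control 3 was a2m.S, at 33.6 RPKM. Of the 14 ectoderm models, 8 or 9 reached 1 RPKM in each of the 4 libraries. The ectoderm factor grhl3.L, for example, was 317 RPKM in control 3, 186 in Wnt8, 345 in control 4 and 112 in FGF8. Control 1 stood apart from the other untreated libraries: its correlation with them across transcripts was 0.845 to 0.901, against 0.948 to 0.955 among controls 2, 3 and 4. Across the same transcripts Wnt8 was closest to control 3, at 0.970, and FGF8 was closest to control 4, at 0.965, and every ratio below was taken with that own control.

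Most transcripts differed little in either treatment. The middle 90% of the members lay between -0.64 and 0.44 on the log2 scale for Wnt8 and between -0.71 and 0.50 for FGF8, and between control 3 and control 4 themselves the range was -0.73 to 0.86. A transcript is called raised or lowered below when its 2 libraries differed at least 4-fold on log2(RPKM + 1) and the higher one held at least 5 RPKM. By that rule Wnt8 caps had 43 raised members, or 0.314% of those tested, and 53 lowered members, or 0.387%. FGF8 caps had 69 raised, or 0.503%, and 55 lowered, or 0.401%. Between the untreated libraries, control 3 was the higher at 56 members past the same rule, or 0.408%, and control 4 at 32, or 0.233%. Together these were 88 members, or 0.642%, against 0.7% for Wnt8 and 0.904% for FGF8 in either direction. The other pairs of untreated libraries were past the rule at 102 and 129 members between control 2 and controls 3 and 4, and at 294 to 639 where control 1 was in the pair. The number of calls alone was therefore no larger than that between untreated libraries for most pairs, and the description below turns on which transcripts were called and on their values in all 4 controls. Against the mean of the 4 controls, the counts were 47 raised and 34 lowered for Wnt8 and 88 raised and 39 lowered for FGF8. With each ratio centred on its median they were 77 raised and 45 lowered for FGF8, a shift of 0.11.

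The transcripts called in the 2 treatments overlapped in direction, as the plot of the 2 ratios shows. Of the raised members, 20 were raised in both, which is 46.5% of those raised by Wnt8 and 29.0% of those raised by FGF8. These 20 include wnt8a.L, whose message was injected for the Wnt8 caps. Of the lowered members, 19 were lowered in both, which is 35.8% of those lowered by Wnt8 and 34.5% of those lowered by FGF8. No member was raised by 1 signal and lowered by the other. Since each direction held only 0.314% to 0.503% of all members, unrelated calls would also give few or none. That 0 is therefore not read as agreement. The 2 ratios share no library, and their correlation across the 13712 transcripts was 0.446, as a description only since transcripts are not independent. The difference of the 2 ratios was past 4-fold at 80 members: 31 in which the Wnt8 ratio was higher, or 0.226%, and 49 in which the FGF8 ratio was higher, or 0.357%, in all 0.583%. For all 80 the 95% counting intervals of the 2 treatments did not overlap, which follows largely from the choice of differences past 4-fold. The intervals were also apart at rfx2.S, where the difference was 0.32. They were computed from recovered reads with the exact Clopper-Pearson method, for RPKM ratios without the added 1 RPKM. These intervals cover counting error only, and the control 3 to control 4 ratio of 7 of the 80 was itself past 4-fold. Against the mean of the 4 controls the difference favoured Wnt8 at 116 members and FGF8 at 99, and with centred ratios Wnt8 at 25 and FGF8 at 60.

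**Figure D1:**
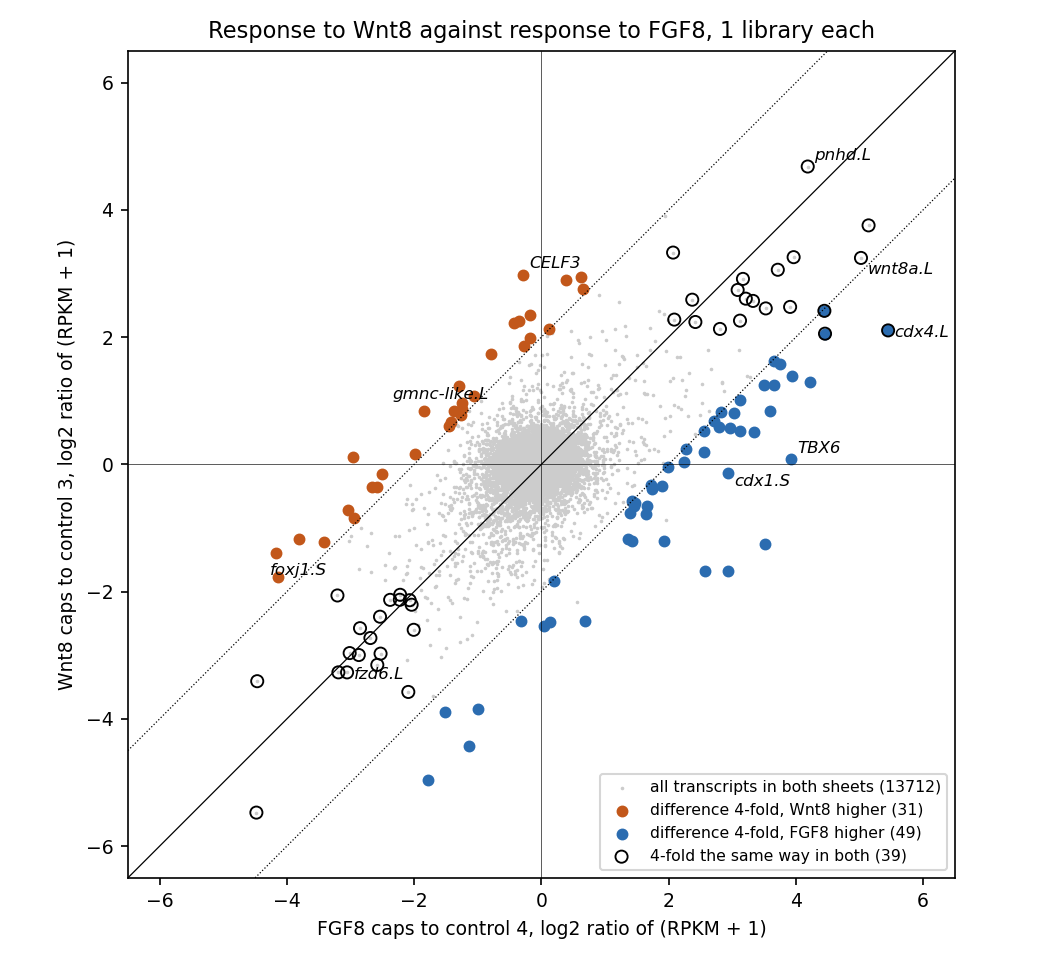
Each point is 1 of 13712 transcripts, with the log2 ratio of FGF8 caps to control 4 on the horizontal axis and of Wnt8 caps to control 3 on the vertical axis, 1 library each; dotted lines mark a 4-fold difference between the ratios. The 39 circled transcripts lie 4-fold the same way in both treatments, 31 orange points lie above the upper dotted line and 49 blue points below the lower one.

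The injected messages came first as a check of the labels. The fgf8.L transcript, listed only in the FGF8 table, was 170 RPKM in the FGF8 caps, 0.332 in control 4, 0.292 in Wnt8 and 0.120 in control 3, so the FGF8 caps alone held it at a high level. The wnt8a.L transcript was 12.9 RPKM in the Wnt8 caps and 0.463 in control 3. In the FGF8 caps, which received no Wnt8 mRNA, wnt8a.L was 37.0 RPKM, against 0.168 in control 4, 0.107 in control 1 and 0.240 in control 2. Both treated libraries stood above every control, and the level was higher in the FGF8 than in the Wnt8 caps. The log2 ratios were 3.24 for Wnt8 and 5.02 for FGF8. Reads from injected and endogenous wnt8a message cannot be told apart in the Wnt8 caps. The other copy, wnt8a.S, was 5.42 RPKM in FGF8 and listed at 0 in control 4, and 0.855 RPKM in Wnt8 against 0.179 in control 3.

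Genes raised by both signals included secreted factors, receptors and posterior transcription factors, and the plot of values by library shows transcripts with the largest response in both. The pnhd.L transcript encodes Pinhead, a secreted protein of the Xenopus gastrula. Its level was 63.8 RPKM in Wnt8, 56.3 in FGF8, 1.53 in control 3, 2.15 in control 4, 0.226 in control 1 and 0.578 in control 2. Wnt8 and FGF8 were alike in level and far above all 4 controls, with log2 ratios of 4.68 and 4.19. The hoxd1.S transcript, an anterior-group Hox gene active early in the posterior gastrula, was 11.0 RPKM in Wnt8 and 13.05 in FGF8, and 0.439, 0.0696, 0.133 and 0.0662 in controls 3, 4, 1 and 2. Its log2 ratios were 3.06 and 3.72, and again no control reached the treated libraries. The sp5.L transcript encodes a zinc finger repressor that is a direct Wnt target. It was 13.1 RPKM in Wnt8 and 12.3 in FGF8, and at most 1.25 in the 4 controls. Its log2 ratios were 2.91 and 3.17, a difference of -0.25.

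Other transcripts of this group also stood above the controls in both treatments. The Frizzled receptor fzd10.L was 32.1 RPKM in Wnt8 and 22.8 in FGF8, against 1.81 to 5.47 in the controls. The zinc finger gene znf703.S was 19.7 RPKM in Wnt8 and 28.9 in FGF8, against 1.14 to 4.05. The transcript xarp-like.L, paired with human AXIN2 by the authors' symbol column, was 18.8 RPKM in Wnt8 and 12.9 in FGF8, against 0.988 to 5.54. The differences of the ratios of these 3 were -0.34, -0.76 and 0.22 on the log2 scale, short of the 4-fold limit. The receptor tyrosine kinase ror2, a receptor for Wnt5 ligands, was called in both treatments for its L copy, at 33.0 RPKM in Wnt8 and 19.9 in FGF8 against 2.39 in control 3 and 3.98 in control 4. Of its S copy, the level was 22.8 RPKM in Wnt8, 6.21 in FGF8 and at most 0.908 in the controls, with log2 ratios of 3.91 and 1.95.

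**Figure D2:**
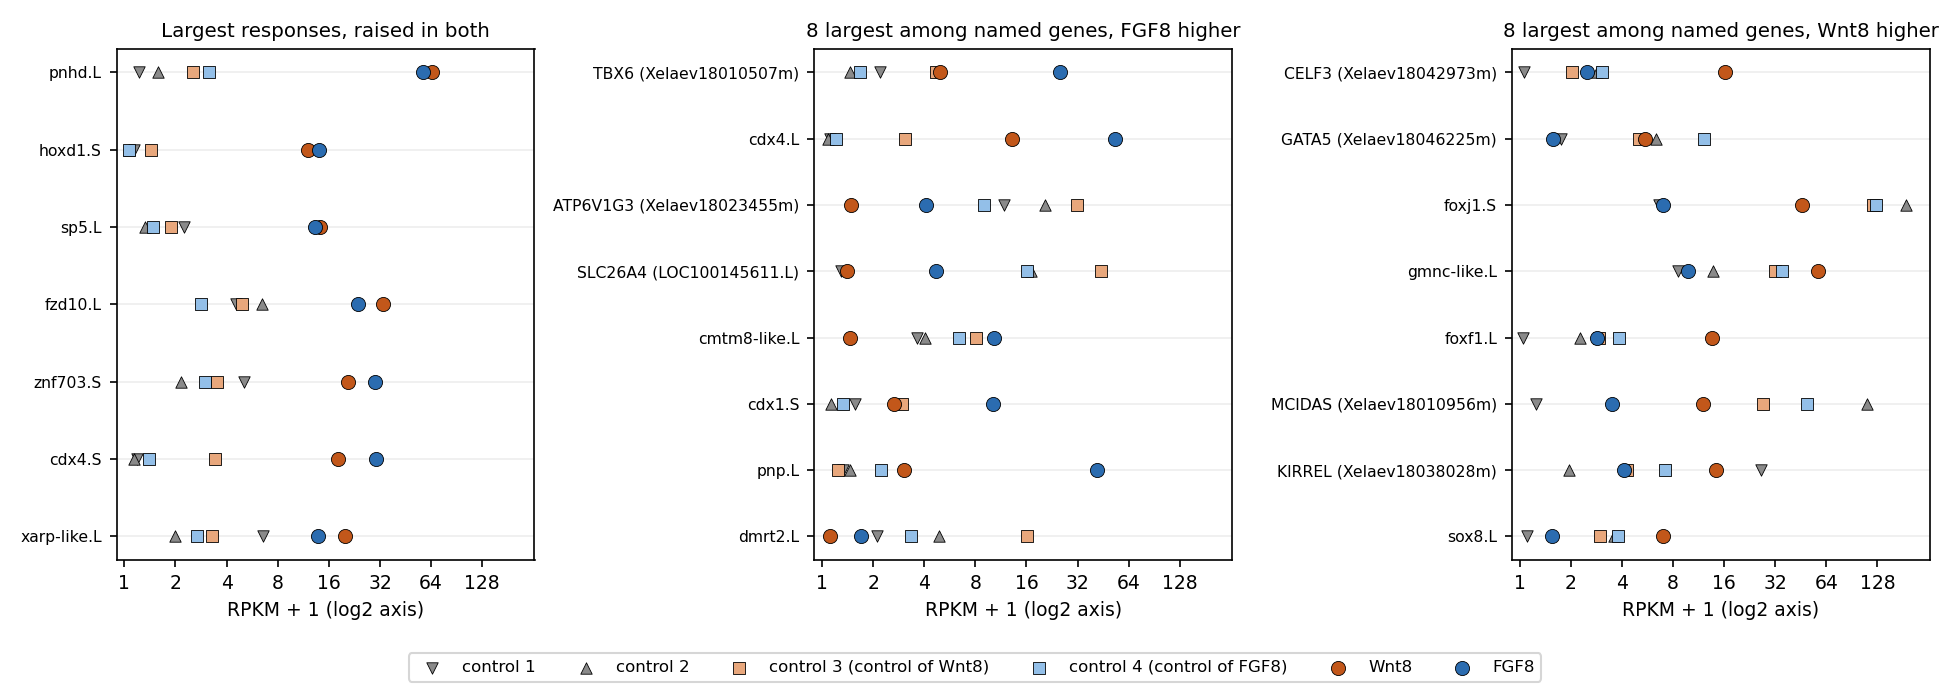
Each row is a transcript and each symbol its RPKM + 1 in 1 library, on a log2 axis: gray triangles for controls 1 and 2, squares for the own controls, circles for Wnt8 and FGF8. The left panel holds transcripts raised in both, where both circles lie right of every control. The other panels hold the 8 largest differences in each direction among transcripts with a gene name or human match. ATP6V1G3 and SLC26A4 are placed by Wnt8 values low against control 3, dmrt2.L largely by a high control 3, and foxj1.S and MCIDAS by low FGF8 values.

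The zinc finger genes zic1 and zic2 act in the neural plate and its border. Both copies of zic1 were raised by both signals, with log2 ratios of 2.13 and 2.81 for zic1.L and of 2.27 and 2.088 for zic1.S. Control 1, however, held 7.34 RPKM of zic1.L, just above the 7.30 of Wnt8, and 26.3 RPKM of zic1.S, above the 17.6 of Wnt8 and the 23.9 of FGF8. The 2 models matched to ZIC2 were raised by FGF8 only, with ratios of 3.104 and 2.53, and their Wnt8 ratios were 1.80 and 0.96.

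Of 20 neural plate members in all, 4 were raised by Wnt8 and 6 by FGF8, none was lowered by either, and none was past 4-fold in the difference. The median log2 ratios of the list were 0.74 and 0.53, beside 0.01 and -0.11 over all members. The zic1 and ZIC2-matched models above were among the raised members. Several other members of the list gave small ratios: the geminin transcripts gmnn.L and gmnn.S were at 0.73 and 0.92 in Wnt8 and at 1.04 and 1.01 in FGF8, and the msi1, cdh2 and lhx5 models lay between -0.01 and 0.68 in both. The counts and medians leave out sox3, whose models are named differently in the authors' tables for Wnt8 and for FGF8. Summed over its models, sox3 had log2 ratios of 0.64 in Wnt8 and 3.1 in FGF8. The counts also leave out sox2.S, at 98.35 RPKM in FGF8 against 17.95 in control 4, with no read under that name in Wnt8. The counts and medians therefore do not compare the signals over the whole list.

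Genes lowered by both signals included a Frizzled receptor, an ionocyte-linked factor and a T-box repressor. The Frizzled receptor fzd6.L was 1.07 RPKM in Wnt8 against 19.0 in control 3, and 2.27 in FGF8 against 26.2 in control 4. The model Xelaev18043178m, matched to UBP1, a Grainyhead-family factor linked to ionocytes in the Xenopus epidermis, was 9.02 RPKM in Wnt8 against 95.7 and 5.86 in FGF8 against 61.7. The T-box repressor model Xelaev18007438m, matched to TBX3, was 0.929 RPKM in Wnt8 against 11.8 and 0.411 in FGF8 against 8.10. For each of these 3 the control 2 library was also high, at 34.3, 65.6 and 12.42 RPKM, but control 1 was low, at 2.42, 4.09 and 0.393 RPKM.

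Other transcripts lowered by both included genes of signalling and ion transport. The Dishevelled model Xelaev18027442m, matched to DVL3, an adaptor between Frizzled and the beta-catenin and polarity branches, was 3.55 RPKM in Wnt8 against 34.6 and 2.93 in FGF8 against 30.8. The Ras GTPase-activating protein gene rasal1.L was 1.07 RPKM in Wnt8 against 15.5 and 1.57 in FGF8 against 17.8. The proton pump subunit gene atp6v1c2.L was 0.136 RPKM in Wnt8 against 9.11 and 0.162 in FGF8 against 5.95. Both treated libraries were the lowest of the 6 at DVL3 and atp6v1c2.L, while at rasal1.L control 1 was lower, at 0.708 RPKM. The lowest ratios were at LOC100493941-like.L, matched to TBC1D24, at 0.144 RPKM in Wnt8 against 49.9 and 0.324 in FGF8 against 28.6, with 0.325 RPKM in control 1 and 164 in control 2. The MAB21L3-matched model Xelaev18014488m followed, at 5.30 RPKM against 65.9 and 1.39 against 51.96.

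That order of the controls was general among lowered members. Of the 53 lowered by Wnt8, 53 were below controls 2, 3 and 4, but 20 were below all 4 controls, beside 20.4% and 12.3% of all members. Of the 55 lowered by FGF8, 52 were below controls 2, 3 and 4 and 18 below all 4, beside 32.5% and 24.5% of all members. The lowered members were chosen as 4-fold below their own control, so these counts in part follow from that choice. Of the members raised by Wnt8, 39 of 43 were above all 4 controls, and of those raised by FGF8, 67 of 69, counts that in part follow from the choice of members 4-fold above their own control. Over all members, Wnt8 was above all 4 controls at 17.5% and FGF8 at 15.0%. The treated libraries therefore overlapped the controls at most of the lowered transcripts, through control 1, and at few of the raised ones. Why control 1 differed was not tested. Counts from a test across libraries with control 1 left out are given below.

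The largest differences in favour of FGF8 included targets of FGF signalling, mesodermal factors and posterior cdx genes. Of the 49 such members, 24 were raised by FGF8 only, 3 were raised by both, 8 were lowered by Wnt8 only and 14 were past the limit in neither ratio. The FGF8 library was above all 4 controls at 37 of the 49, beside 15.0% of all members. The 49 were chosen for a higher FGF8 ratio, so this count in part follows from that choice. These 49 include 10 with no human match in the files, which are 20.4% of them, beside 7.25% of all members. The 3 largest differences in favour of FGF8 were among these unmatched models, at -4.76, -4.61 and -4.25.

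Not all of the leading transcripts belonged to a known target group. The purine nucleoside phosphorylase gene pnp.L was 40.5 RPKM in FGF8 against 1.21 in control 4, and 2.05 in Wnt8 against 0.241 in control 3, while its S copy had a difference of 0.05. The transcript cmtm8-like.L was 9.28 RPKM in FGF8 against 5.38, and 0.456 in Wnt8 against 7.02, so that its difference of -3.15 came from the low Wnt8 value. The dmrt2.L transcript was 0.116 RPKM in Wnt8 against 15.0 in control 3, and 0.687 in FGF8 against 2.36 in control 4. Controls 1 and 2 held 1.11 and 3.87 RPKM, so both treated libraries were below every control. Its difference of -2.85 came largely from control 3, which was above control 4 by 2.25 on the log2 scale. With the control libraries exchanged this difference reversed.

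The feedback inhibitors of the FGF pathway separated the signals. The sprouty gene spry2, which encodes an inhibitor of receptor tyrosine kinase signalling, was 20.2 RPKM in FGF8 for its L copy and 0.746 in control 4. In Wnt8 it was 2.72 RPKM against 1.09 in control 3, with 2.096 and 0.509 in controls 1 and 2. The log2 ratios were 3.60 for FGF8 and 0.83 for Wnt8: the FGF8 library lay far above the 4 controls and Wnt8 just above the highest of them. The spry2.S copy gave 3.504 and 1.25. The models matched to IL17RD, the transmembrane inhibitor Sef, were 29.9 RPKM in FGF8 against 2.06 for Xelaev18001778m and 26.7 against 4.75 for Xelaev18003043m. In Wnt8 they were 3.34 against 2.04 and 7.01 against 5.81, so that their Wnt8 ratios were 0.51 and 0.23 beside FGF8 ratios of 3.33 and 2.27.

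The whole FGF list had the same order. Of its 19 members, 7 were raised by FGF8 and 0 by Wnt8, none was lowered, and the median ratios were 1.60 and 0.35. The difference was in favour of FGF8 at 17 of 19, beside 39.6% of all members, and its median was -1.50. The MAP kinase phosphatases dusp6.S and dusp6.L, which switch off ERK, were at 2.49 and 2.02 in FGF8 and at 0.78 and 0.52 in Wnt8. The ETS factor models matched to ETV1 were at 1.77 and 1.60 in FGF8 and at 0.24 and 0.40 in Wnt8. The exceptions were the receptors fgfr4.L and fgfr4.S. The fgfr4.L transcript was 18.4 RPKM in FGF8 against 45.4 in control 4, and 45.4 RPKM in Wnt8 against 26.3 in control 3, a difference of 2.03 in favour of Wnt8.

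Mesodermal factors gave the largest difference with a human match. The model Xelaev18010507m, matched to TBX6, a T-box factor of presomitic mesoderm, was 24.3 RPKM in FGF8 and 0.668 in control 4, and 3.93 RPKM in Wnt8 and 3.67 in control 3. Controls 1 and 2 held 1.19 and 0.454 RPKM. The FGF8 library stood far above the other 5, and the difference of the ratios was -3.84. Control 3 was higher than control 4 at this transcript by 1.48 on the log2 scale, and the Wnt8 library was close to control 3. The other TBX6-matched member, Xelaev18007613m, was past the limit in neither ratio. The T-box gene eomes.L, which acts in early mesendoderm, was 16.1 RPKM in FGF8 against 1.60, and 2.39 in Wnt8 against 1.11. The HES7-matched model Xelaev18019216m, a segmentation-clock type repressor, was 9.98 RPKM in FGF8 against 0.409, and 1.61 in Wnt8 against 0.760.

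Of the 8 mesodermal members, 4 were raised by FGF8 and 1, wnt8a.L, by Wnt8, with medians of 2.31 and 0.63. The wnt8a message was itself injected for the Wnt8 caps, so its count there is no measure of a response. The apelin receptor copies aplnr.L and aplnr.S went the other way, at -1.17 and -1.37 in FGF8 and at 0.35 and 0.84 in Wnt8. The aplnr.S difference of 2.21 was in favour of Wnt8.

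About as many posterior genes were raised by Wnt8 as by FGF8, 7 and 8 of 14, and the cdx genes, homeobox factors of the posterior body, had their highest level in the FGF8 library. The cdx4.L transcript was 51.8 RPKM in FGF8 and 0.209 in control 4, and 12.2 RPKM in Wnt8 and 2.07 in control 3, with 0.120 and 0.0896 in controls 1 and 2. Both treated libraries were above every control, and FGF8 was above Wnt8. Its FGF8 ratio was 5.45 and its Wnt8 ratio 2.104, a difference of -3.34, and control 3 was above control 4 by 1.34. The cdx4.S copy was 29.5 RPKM in FGF8 and 17.1 in Wnt8, against 0.136 to 2.41 in the controls. The cdx2.L transcript was 17.01 RPKM in FGF8 and 8.08 in Wnt8, against 0.340 to 2.05. The cdx1.S transcript was 9.16 RPKM in FGF8 and 1.67 in Wnt8, the latter below the 1.94 RPKM of control 3.

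For the cdx genes the choice of control decides the size of the difference. With the control libraries exchanged, the difference for cdx4.S was 0.53 and that for cdx2.L 0.20, in favour of Wnt8. Set directly beside each other, the FGF8 library was still the higher for cdx4.L, cdx4.S, cdx2.L and cdx1.S.

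Of the 14 posterior axis members, 7 were raised by Wnt8 and 8 by FGF8, with medians of 1.84 and 2.68. The noncanonical ligand wnt5b.S was 10.9 RPKM in FGF8 against 0.457 in control 4 and 2.23 in Wnt8 against 0.844 in control 3. The retinoic acid-degrading enzyme cyp26a1.S was 106 RPKM in FGF8 against 31.0, and 35.5 in Wnt8 against 46.6, a difference of -2.12, but control 1 held 257 RPKM. The homeobox gene evx1.L was 7.44 RPKM in Wnt8 against 0.914 and 3.27 in FGF8 against 0.303, with ratios of 2.14 and 1.71. The 2 models matched to GBX2, a hindbrain-boundary factor, had Wnt8 ratios of 2.24 and 2.41 and FGF8 ratios of 2.42 and 1.84. Both copies of pnhd and 1 GBX2-matched model were past the limit in both treatments, while evx1.L and the other GBX2-matched model were past it in Wnt8 only. The wnt5b.S transcript was past it in FGF8 only, and cyp26a1.S in neither. Of the Hox genes, both copies of hoxd1 were raised by both signals, with ratios of 2.60 for Wnt8 and 3.21 for FGF8 at the L copy.

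The Sp5-like gene sp5l, a zinc finger gene known as a target of FGF and Wnt signalling, had the larger FGF8 response in both copies. The sp5l.S transcript was 89.4 RPKM in FGF8 against 3.12 in control 4, and 12.7 in Wnt8 against 2.30 in control 3, with 9.12 and 2.75 in controls 1 and 2. The sp5l.L transcript was 196 RPKM in FGF8 against 14.7, and 54.4 in Wnt8 against 22.3. The difference was -2.40 for each copy. Of the 12 members of the Wnt feedback and target list, 2 were raised by Wnt8 and 3 by FGF8, with medians of 0.66 and 0.56. Models of the list that were listed for Wnt8 only, such as both axin2 copies, notum.L and lef1.S, are outside these counts. The counts and medians therefore do not compare the signals over the whole list. The members nkd1.L, which encodes a Dishevelled-binding inhibitor, and tcf7.S were at 0.58 and 0.93 in Wnt8 and at -0.82 and 0.30 in FGF8.

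Some transcripts with a large Wnt8 ratio were not members, since the authors' FGF8 values did not include them. The axin2.L transcript, a scaffold of the beta-catenin destruction complex and a common Wnt readout, was 22.8 RPKM in Wnt8, 0.166 in control 3 and 0.0742 in control 4. Its absence from the FGF8 table bounds its FGF8 level at 1.93 RPKM, because the mean of FGF8 and control 4 had to stay under 1 RPKM. The models Xelaev18029860m and Xelaev18027783m, matched to PAX3, a neural border factor, were 11.9 and 9.41 RPKM in Wnt8 and 0.157 and 0.0364 in control 3, with FGF8 bounded at 1.75 and 1.89. The transcript LOC100494211.L, named Bighead in the human symbol column of the files, was 10.4 RPKM in Wnt8, 0.787 in control 3 and 1.03 in control 4, and at most 0.973 in FGF8. Of 444 transcripts listed for Wnt8 only and with a control 4 value, 6 were raised by Wnt8 and none was lowered. The listing itself favours that direction, since a transcript enters by its mean of Wnt8 and control 3 while its mean of FGF8 and control 4 stays low.

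On the FGF8 side, 13 transcripts listed for FGF8 only were raised and none was lowered, of 604 with reads in the full table, and here too the listing favours a high FGF8 library. The Brachyury copy t.S, the T-box factor of the posterior mesoderm, was 12.43 RPKM in FGF8 and 0.245 in control 4, and 1.04 in Wnt8 and 0.545 in control 3. The inhibitors spry1.L, spry1.S and spry4.L were 12.3, 12.7 and 9.29 RPKM in FGF8, and 0.544, 0.465 and 0.175 in Wnt8. The organizer forkhead factor foxa4.L was 7.64 RPKM in FGF8 and 0.0888 in Wnt8, and the proneural factor neurog1.L was 7.06 and 0.806. In controls 3 and 4 each of these 6 was at most 1.04 RPKM.

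The differences in favour of Wnt8 came in part from higher Wnt8 and in part from lower FGF8 values. Of the 31, 8 were raised by Wnt8, 10 were lowered by FGF8 and 13 were past the limit in neither ratio. The model Xelaev18042973m, matched to CELF3, an RNA-binding protein of neurons, was 15.1 RPKM in Wnt8 and 1.05 in control 3, and 1.499 in FGF8 and 2.05 in control 4. Of the 2 treated libraries only Wnt8 was above the 4 controls, of which the others held 0.0591 and 1.86 RPKM, and the dissociated caps held 1.04, 4.62 and 8.85 RPKM. The forkhead gene foxf1.L, a factor of ventral and lateral mesoderm, was 12.6 RPKM in Wnt8 against 1.92, and 1.85 in FGF8 against 2.85. The model LOC101731059.L, matched to TMEM221, was 14.3 RPKM in Wnt8 and 2.14 in FGF8, with controls of 0.482 to 1.39. The SoxE gene sox8.L, expressed in the neural crest, was 6.02 RPKM in Wnt8 against 1.98 and 0.547 in FGF8 against 2.82. The KIRREL-matched model Xelaev18038028m was 13.3 RPKM in Wnt8 against 3.28 and 3.12 in FGF8 against 6.18, with controls 1 and 2 at 25.3 and 0.961, so neither treated library left the range of the controls.

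At the neural plate border the order was mixed. Of 12 border and crest members, 4 were raised by Wnt8 and 1 by FGF8, with medians of 0.87 and 0.96. Outside these counts are both PAX3-matched models, listed for Wnt8 only, and the foxd3 and hes4 copies, listed for FGF8 only. The counts and medians therefore do not compare the signals over the whole list. The msx2.S transcript, a homeobox gene of the border, was 11.6 RPKM in Wnt8 against 1.63 and 20.4 in FGF8 against 1.45. The msx2.L copy was 29.6 RPKM in Wnt8 against 4.93 and 36.2 in FGF8 against 8.83, with 15.9 in control 2. The models matched to PRDM1, a zinc finger repressor of the border, were 53.3 and 40.6 RPKM in Wnt8 against 12.55 and 8.19. They were 24.5 and 33.7 RPKM in FGF8 against 13.99 and 12.9. Control 1 held 64.4 and 24.1 RPKM, so that the model with the higher Wnt8 level did not exceed control 1 in either treatment. The TFAP2A-matched models, an ectoderm and crest factor, had Wnt8 ratios of 0.52 and 0.96 and FGF8 ratios of -0.71 and -0.49.

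The multiciliated cell genes were lower after FGF8 than after Wnt8. In the Xenopus epidermis multiciliated cells arise in the inner layer under gmnc and mcidas, which turn on myb, ccno and foxj1, and ionocytes arise beside them under foxi1. The ciliated and ionocyte list was split by these roles after its values had been seen. Its 15 multiciliated members come from 8 genes: 9 were lowered by FGF8 and 0 by Wnt8. Their median log2 ratio was -2.75 in FGF8 and -1.07 in Wnt8, beside -0.11 and 0.01 over all members. The difference was in favour of Wnt8 at 15 of 15, from 0.31 to 2.77, where 60.4% of all members had that sign. Outside these counts are foxj1.2.L and foxj1.2.S, listed for FGF8 only, and the TEKT2-matched model Xelaev18015140m and tekt3.L, listed for Wnt8 only. The counts and medians therefore do not compare the signals over the whole list.

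The regulators of the ciliated fate gave the values behind these counts. The foxj1.S transcript, the master factor of motile cilia, was 6.02 RPKM in FGF8 against 125 in control 4, and 44.7 in Wnt8 against 119 in control 3. Control 2 held 188 RPKM and control 1 only 5.61 RPKM, so the FGF8 level lay within the range of the untreated caps. The gmnc-like.L transcript, the earliest regulator of the set, was 8.83 RPKM in FGF8 against 34.3, but 56.0 in Wnt8 against 31.0. Here the Wnt8 library was the highest of the 6 and FGF8 lay between control 1, at 7.61, and control 2, at 12.7 RPKM. The MCIDAS-matched model Xelaev18010956m was 2.49 RPKM in FGF8 against 48.2 and 11.0 in Wnt8 against 26.0, with 111 RPKM in control 2 and 0.256 in control 1.

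Downstream regulators followed the same order. The ccno.L transcript, a cyclin needed to make the many centrioles, was 10.53 RPKM in FGF8 against 81.8 and 48.3 in Wnt8 against 97.9. The myb.L transcript was 0.705 RPKM in FGF8 against 12.97 and 6.002 in Wnt8 against 10.54. The rfx2 copies, ciliary transcription factors, had the smallest FGF8 ratios among the regulators, at -0.35 and -0.98.

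The overlap with control 1 held for the group. FGF8 was below controls 2, 3 and 4 at 15 of the 15 multiciliated members but below all 4 controls at 5, since control 1 was the lowest control at 13. Over all members FGF8 was below controls 2, 3 and 4 at 32.5% and below all 4 at 24.5%. The summed level of the 15 was 88.1 RPKM in FGF8 and 327 in Wnt8, and 97.0, 1067, 596 and 577 in controls 1, 2, 3 and 4. The 3 dissociated libraries summed to 47.6, 64.7 and 97.4 RPKM. With the control libraries exchanged the difference was still above 0 at 15 of 15, with a median of 1.92. In bulk explants, fewer cells of a type and less RNA per cell cannot be told apart.

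**Figure D3:**
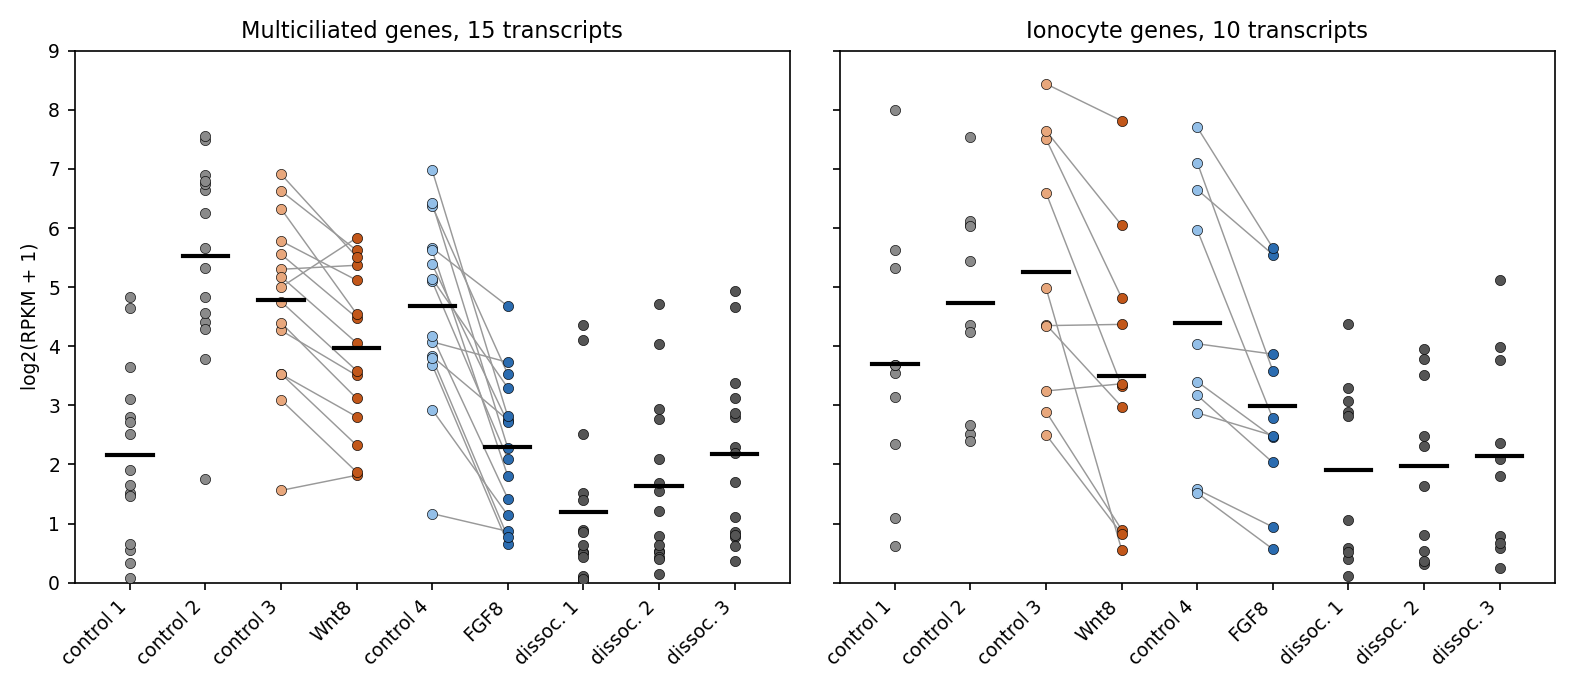
Points are transcripts and black bars their means, as log2(RPKM + 1) in each of 9 libraries; lines join each treated library to its own control. The multiciliated mean is 3.97 in Wnt8 and 2.30 in FGF8, the latter near the 2.16 of control 1, while the ionocyte mean is 3.5 in Wnt8 and 2.99 in FGF8.

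The order of the signals at ionocyte members depended on the control. Of 10 members from 6 genes, 3 were lowered by Wnt8 and 3 by FGF8, and the median difference was -0.26, from -3.29 to 1.93. The transcripts foxi2.L, foxi2.S and ca2.L, listed for Wnt8 only, are outside these counts. With the control libraries exchanged the difference was above 0 at 10 of 10, with a median of 1.25, and the FGF8 library was below Wnt8 at 7 of 10. The exchange reverses the sign with which the control 3 to control 4 ratio, of median 0.79 here, enters the difference. The proton pump subunit model Xelaev18023455m, matched to ATP6V1G3, was 0.473 RPKM in Wnt8 against 30.7 in control 3, and 3.09 in FGF8 against 8.001 in control 4. Controls 1 and 2 held 10.7 and 19.5 RPKM, so both treated libraries were below every control and Wnt8 was the lowest. The anion exchanger transcript LOC100145611.L, matched to SLC26A4 and not on the list, was 0.406 RPKM in Wnt8 against 42.8, and 3.67 in FGF8 against 15.0, but control 1 also held only 0.295 RPKM. By contrast the ionocyte factor foxi1.S was 11.0 RPKM in FGF8 against 137 and 65.1 in Wnt8 against 199, with 48.5 and 64.2 in controls 1 and 2. At ATP6V1G3 and SLC26A4 control 3 exceeded control 4 by 1.82 and 1.45 on the log2 scale, and with the control libraries exchanged the difference for ATP6V1G3 was 0.34 in place of -3.29.

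The GATA factors of the endoderm list were lowered by FGF8 only. The gata4.S transcript was 0.381 RPKM in FGF8 against 6.86 and 7.23 in Wnt8 against 8.16, and the GATA5-matched model Xelaev18046225m was 0.581 RPKM in FGF8 against 11.3 and 4.45 in Wnt8 against 4.06. Control 1 was also low for both, at 0.377 and 0.755 RPKM. For the GATA5 match control 4 was the highest control, with 5.38 RPKM in control 2 and a control 3 to control 4 log2 ratio of -1.28. Its difference of 3.06 in favour of Wnt8 therefore rests in part on the level of control 4. The other 3 endoderm members were past the limit in neither, and the a2m.S transcript was between 14.5 and 33.6 RPKM in the 4 libraries compared.

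Some epidermal and ventral genes were lowered, and at the list level control 1 was lower still: the mean log2(RPKM + 1) of the epidermal members was 5.26 in Wnt8 and 5.22 in FGF8, 4.66 in control 1 and 6.01 to 6.31 in controls 2 to 4. For the BMP pathway and ventral members it was 4.76, 5.02, 4.605 and 5.82 to 6.24 in the same order. Of 27 epidermal members, 5 were lowered by Wnt8 and 2 by FGF8, none was raised and none differed between the signals by 4-fold, with medians of -0.66 and -0.56. The keratin krt12.S was 167 RPKM in Wnt8 against 829 and 446 in FGF8 against 659, but controls 1 and 2 held 56.2 and 1773 RPKM. Of 22 BMP pathway and ventral members, 5 were lowered by Wnt8 and 4 by FGF8, with medians of -0.74 and -0.65. The BMP feedback inhibitor szl.S, which encodes Sizzled, was 20.6 RPKM in Wnt8 against 119 and 85.1 in FGF8 against 107, with 19.4 and 130 in controls 1 and 2. Its difference of -2.15 was the only one past 4-fold among the members of that list. The ventx1.1, ventx1.2 and ventx3.2 copies, listed for FGF8 only, are outside these counts. The BMP4, id3 and bambi transcripts were past the limit in neither, with ratios from -0.60 to 0.29.

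Few anterior or neuronal members were past the limit. Of 8 anterior neural members, 1 was lowered by each signal, the cement gland gene agr2.S, at 2.13 RPKM in Wnt8 against 17.7 and 5.05 in FGF8 against 42.7. Control 1 held only 0.470 RPKM of agr2.S, below both treated libraries, and control 2 held 76.4 RPKM. The OTX2-matched models had Wnt8 ratios of -1.89 and -0.24 and FGF8 ratios of -0.29 and 0.37. Of 8 neuronal members, 2 were lowered by Wnt8, the Notch ligand dll1.S and an HES5-matched model, at -2.08 and -2.14. Their FGF8 ratios were -1.82 and -1.44, short of the limit. Control 1 was below the Wnt8 library at both, at 28.6 and 0.730 RPKM. Of 6 early dorsal and 15 stress members, none was past the limit in either ratio, and no muscle or blood gene was a member. Models listed for 1 treatment only are outside these counts, such as neurog1.L and foxa4.L, given above as raised by FGF8. The early dorsal genes gsc, cer1 and nog were listed for neither treatment. These counts therefore do not compare the signals over the whole lists.

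**Figure D4:**
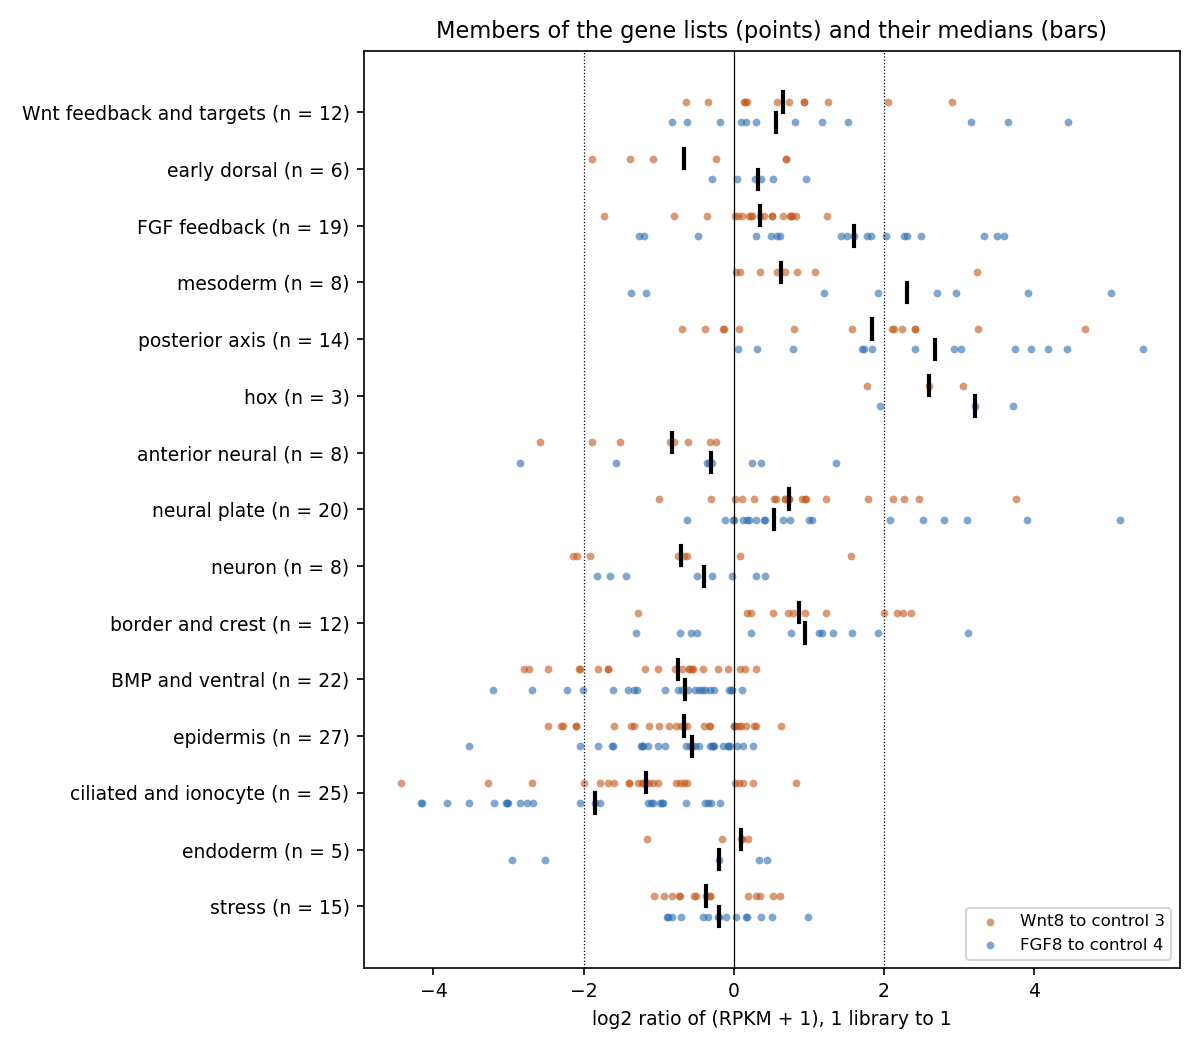
Each point is a member of a gene list, with its log2 ratio in Wnt8 caps (orange) or FGF8 caps (blue) on the horizontal axis; bars are list medians and dotted lines mark 4-fold. The FGF8 medians lie right of Wnt8 for FGF feedback (1.60 against 0.35) and mesoderm (2.31 against 0.63), and left of it for the ciliated and ionocyte list (-1.84 against -1.17).

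A test across libraries was made with limma, in 1 fit over the 4 controls, 3 dissociated libraries, Wnt8 and FGF8, which takes the spread from the controls and dissociated caps and assumes that the lone treated library varies like them. At a Benjamini-Hochberg adjusted p under 0.05 over all 13712 members, Wnt8 caps had 8 transcripts higher than the controls, or 0.0583%, and 0 lower. FGF8 caps had 10 higher, or 0.0729%, and 0 lower. The 2 contrasts share the 4 controls. The wnt8a message was injected for the Wnt8 caps, so its call there is no measure of a response. In Wnt8 caps wnt8a.L was higher by 3.49 (SE 0.34, limma adjusted p = 0.0234) and ror2.S by 3.76 (SE 0.46, limma adjusted p = 0.047). Also called were pnhd.S, hoxd1.S, hoxd1.L, evx1.L and LOC101731059.L. In FGF8 caps pnhd.S was higher by 3.95 (SE 0.29, limma adjusted p = 0.00248) and cdx4.L by 5.18 (SE 0.54, limma adjusted p = 0.0197). Also called were wnt8a.L, wnt5b.S, hoxd1.S, hoxd1.L and Xelaev18001880m, which has no human match. Each named transcript was above all 4 controls in the treated library of its contrast.

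The contrast of Wnt8 against FGF8 caps in the same limma fit called 0 of 13712 transcripts in either direction, or 0.0%. In this contrast the controls cancel, so it compared the 2 treated libraries directly and did not test the difference of the 2 ratios. At an unadjusted p under 0.05 it held 487, or 3.55%, and voom on the recovered reads called 0 and held 533, or 3.89%, both shares below the one that the threshold itself allows. For cdx4.L the FGF8 library was higher than Wnt8 by 2.00 (SE 0.69) and for Xelaev18001778m, the IL17RD match, by 2.83 (SE 0.65), each with a limma adjusted p = 0.96. For foxj1.S the Wnt8 library was higher than FGF8 by 2.70 (SE 2.12), with the large spread of the controls behind that error. With control set as the replicate block the counts were 0 for Wnt8, 0 for FGF8 and 0 for the difference, with 384, 314 and 160 transcripts at an unadjusted p under 0.05. The calls also rest on single control libraries: without control 1 they were 24 for Wnt8, 11 higher and 13 lower, and 25 for FGF8, 19 higher and 6 lower, without control 2 they were 0 and 3, and without control 4 the Wnt8 calls were 0.

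Libraries outside the 2 ratios gave further values for the called members. In dorsal against ventral embryo explants, 32 of 48 members lowered by Wnt8 were at least 2-fold lower dorsally, with a median of -1.28, and so were 25 of 52 lowered by FGF8, with a median of -0.97, beside 1.73% of all members. Members raised in both had a dorsal to ventral median of -0.81, with 6 of 20 lower dorsally and 2 higher. The members raised by Wnt8 had 9 of 43 higher and 9 lower, and those raised by FGF8 12 of 69 higher and 9 lower. Most members lowered by Wnt8 with a value, and 25 of 52 lowered by FGF8, were thus lower dorsally, while the raised ones were on both sides. In caps with Xnr2, a Nodal ligand, adding Wnt8 mRNA gave other ratios than in caps without it. Of the members raised in both, 11 of 19 were at least 2-fold lower in Wnt8 plus Xnr2 than in Xnr2 alone and 1 was higher, with a median of -1.29, beside 0.95% lower, 2.197% higher and a median of 0.07 over all members. The multiciliated regulators foxj1.S and gmnc-like.L were higher there, by 1.15 and 1.496, and foxi1.S and foxi1.L by 3.42 and 3.53.

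The allotetraploid genome of Xenopus laevis carries L and S copies of many genes, and these gave a partial repeat within the same libraries. Of 2702 pairs with both copies among the members, 24 held a copy past 4-fold in the difference. In 18 of the 24 both copies differed in the same direction, and in 12 both did so by at least 2-fold. The same counts were not made over all 2702 pairs, so whether these exceed the background was not tested. Of all members, 60.4% had a difference in favour of Wnt8, so copies can share a direction without a call. The pairs spry2, sp5l, foxj1, cdx4 and capn8 were past 4-fold in both copies. Reads of near-identical copies can be shared between them, so the copies are not independent, and across all pairs the correlation of the difference was 0.488.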

How the data were processed

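The series holds 16 libraries, of which the 2 treated libraries, 4 controls and 3 dissociated libraries enter the comparisons. Values are RPKM, reads scaled by transcript length and by mapped reads, which the authors computed per transcript on the JGI9.1 assembly, per the file headers; in the tables of single treatments they removed transcripts with a mean under 1 RPKM. The submitters' processing notes name TopHat2 2.09 and DESeq, without their role; the counting program is not given in the sources used here. Libraries were made with a kit that does not mark strand and read as 100 base reads, per the labels' protocols, so antisense reads, and reads shared by L and S copies, cannot be told apart.

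From these values whole reads were recovered for 100% of the 13712 members within 0.01 read, which gave the depths (26580374 to 46522450 mapped reads) and exact 95% counting intervals of each RPKM ratio. Ratios are log2(RPKM + 1), which understates changes of low transcripts. The limit was 4-fold (2 on the log2 scale) with at least 5 RPKM in the highest library. The test across libraries was limma 3.58.1 with a mean-variance trend in R 4.3.3, Benjamini-Hochberg adjusted over all members. It was also run on simulated data with independent libraries, which held neither control sets nor a library apart like control 1. That simulation therefore does not show how the test behaves on these libraries. Other steps used Python 3.11.15, pandas 2.3.3, scipy 1.17.1 and matplotlib 3.10.9. Control set numbers pair controls with dissociated caps, per the file headers, and the deviations of same-numbered libraries correlated at 0.59, 0.39 and 0.61.

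The members, the 16 gene lists and the rules were chosen with earlier results of these data known, and the split of the ciliated and ionocyte list by role came after its values were seen. Transcripts named by rule were the injected genes, the 8 largest differences in each direction among transcripts with a gene name or human match, the 8 raised and 8 lowered in both with the largest response, and from each list those past the limit, or the 4 with the largest difference; other transcripts named were chosen after their values were seen, and some that the rule or the tests select are not reported here. Human symbols are those in the authors' tables. A single transcript name occurred more than once, and its earliest entry was used. Alternatives were other pseudocounts, limits, controls, scalings, copy handling, voom on recovered reads, and leaving out each replicate.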

Additional observations from a re-analysis of the deposited data

Results flagged for a closer look

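Among the 64 transcripts named by rule, 10 had an untreated library apart from the other 3 by Dixon's test. In groups not chosen by their values, chance does this in about 1 of 20. These transcripts were chosen in part by ratios to controls 3 and 4, and some are copies of 1 gene. That rate is therefore no background for the 10 of 64. Control 1 was the library apart in 8 of the 10. It was the lowest for foxj1.S at 5.605 RPKM (others 119 to 188), for foxj1.L at 1.761 RPKM (others 79.2 to 106), for the UBP1 match Xelaev18043178m at 4.091 RPKM (others 61.7 to 95.7) and for szl.S at 19.42 RPKM (others 107 to 130). It was also the lowest for the HES5 match Xelaev18037602m at 0.73 RPKM (others 12.2 to 14.5) and for the TBX3 match Xelaev18010379m at 0.5491 RPKM (others 17.7 to 19.8). It was the highest for the ZIC2 match Xelaev18015642m at 6.489 RPKM (others 1.72 to 2.06) and for the PRDM1 match Xelaev18029311m at 64.37 RPKM (others 10.8 to 13.99).

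Of the libraries used as a denominator, control 3 was the highest for cdx4.L at 2.07 RPKM (others 0.0896 to 0.209) and control 4 the lowest for wnt5b.S at 0.4572 RPKM (others 0.797 to 0.849). A high control 3 lowers the Wnt8 ratio of cdx4.L, and a low control 4 raises the FGF8 ratio of wnt5b.S.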

How the results depend on the processing

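The main counts past 4-fold were 96 for Wnt8, 124 for FGF8, 80 for the difference, 20 raised and 19 lowered in both. A pseudocount of 0.1 gave 133 differences; 5 gave 24, 51 and 20, with 3 and 4 in both. A 2-fold limit gave 408, 429, 502, 66 and 111. Against the mean of the 4 controls there were 215 differences and 8 lowered in both. By construction, exchanging the controls shifts each single ratio by the control 3 to control 4 ratio and the difference by 2 times that ratio. The exchange gave 207, 269 and 917, and reversed the difference of Xelaev18023455m (0.34), dmrt2.L (1.66), cdx4.S (0.53) and cdx2.L (0.20). Summing L and S copies gave 13 raised in both. Of the 80 differences, 80 kept their sign at either other pseudocount and against the mean of controls, and 69 with controls exchanged. Centring shifts every difference by the same amount, far smaller than the 4-fold limit, so it could not alter a sign either. Other limits, minimums and listings leave the values unchanged and could not alter a sign. Summing copies held 33 of the 80, whose values were also unchanged. Of the 80, 19 were still past 4-fold at a pseudocount of 5, 44 against the mean of controls and 33 with controls exchanged.

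The limma counts, 8 for Wnt8 and 10 for FGF8, were 0 and 0 with control set as replicate block (pairing the controls with the dissociated caps), 0 and 0 at a pseudocount of 0.1, 16 and 36 at 5, 0 and 0 with a mean of at least 5 RPKM, 9 and 16 after quantile normalization, 1 and 7 with voom, and 0 and 7 with the spread from controls only. Leaving out 1 library gave 0 to 24 for Wnt8 and 3 to 25 for FGF8, and the contrast of Wnt8 with FGF8 caps stayed at 0. The cause of these shifts was not tested, except that the block leaves 2 residual degrees of freedom in place of 5. With 1 library per treatment, differences between treatments and between libraries cannot be told apart.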

Other observations

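The neural plate gene sox3 could not be a member, because the authors' tables for Wnt8 and for FGF8 name its 2 models differently. Summed over these models, sox3 was 139 RPKM in Wnt8 against 88.9 in control 3, a log2 ratio of 0.64, and 617 RPKM in FGF8 against 71.3 in control 4, a ratio of 3.1. The BMP and Nodal pathway inhibitor smad7, with names that differ in the same way, was at -0.12 in Wnt8 and -0.43 in FGF8. In all 894 transcripts listed for FGF8 only carry names with no read in the full table, and they are not compared here.

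The FGF inhibitor gene il17rd has hesx1 and arhgef3.2 as its neighbours on both the L and the S chromosome in RefSeq's annotation of the Xenopus_laevis_v10.1 assembly, a later build than that of the files. The HESX1-matched model Xelaev18001776m, an anterior neural repressor, was 9.61 RPKM in FGF8 against 3.13 and 1.60 in Wnt8 against 2.95. The ARHGEF3-matched model Xelaev18001779m was 18.4 RPKM in FGF8 against 2.31 and 2.53 in Wnt8 against 2.08. The differences of the ratios were -1.97 and -2.36, beside -2.82 for IL17RD. The 3 were chosen after their values were seen, and whether neighbours share a response more widely was not tested.

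The elavl3 match Xelaev18004445m, an RNA-binding protein of differentiating neurons, was 22.9 RPKM in Wnt8 against 7.09 in control 3 and 3.94 in FGF8 against 4.03 in control 4. Controls 1 and 2 held 0.311 and 4.13 RPKM, so Wnt8 was the highest of the 6 libraries, as it was for the CELF3 match. Its difference of 1.59 is under the 4-fold limit.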
